A study of Rattus norvegicus with 10 samples.

Results

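Ucp2 encodes uncoupling protein 2, and its transcript was followed here through the hippocampus of 10 adult male rats. It is 1 of 16643 genes in the deposited table, where it stands under the identifier ENSRNOG00000017854. The gene was chosen from the study's paper, which names it as a candidate for the difference between lines, and its row was to be read across both lines and against the social interaction scores. The difference between lines and the relation to the score are therefore given below as descriptions, without a test.

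UCP2 is a carrier of the mitochondrial inner membrane and belongs to the same family as the brown fat protein UCP1. Carriers of this family move metabolites, nucleotides or protons between the matrix and the space between the membranes, and UCP2 is known to export small carbon compounds from the matrix and to lower the release of reactive oxygen species. In the brain its transcript is known from microglia and from some neurons, and its activity has been linked to neuronal survival and to the number of mitochondria at synapses. The protein is short-lived and its translation is regulated, so a transcript level need not give the protein level.

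The rats came from generation 43 of 2 selectively bred lines, bred High Responder (bHR) and bred Low Responder (bLR), which differ in their locomotor response to new surroundings. There were 5 rats in each line, all given vehicle (saline and water) by daily injection for 14 days in standard housing and all at postnatal day 92. Every rat had spent 15 minutes on the elevated plus maze, an anxiogenic setting, before a test of social interaction, and the whole hippocampus was taken 1 hour after the maze, so no group without this experience enters the comparison. The lines differ at many loci through breeding, and no rats of an unselected strain were analysed here. Polyadenylated RNA was sequenced, with 29106105 to 48663164 reads per rat assigned to the genes kept by the authors' filter.

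Because whole tissue was used, fewer cells that express Ucp2 and less Ucp2 RNA per cell cannot be told apart. The files do not pair identifiers with gene names, and 0 of the 16643 identifiers matched the rat gene table used here. Markers of hippocampal cell types, the other uncoupling proteins and the genes that regulate Ucp2 were therefore not examined. In the RefSeq order of genes on chromosome 1 (assembly GRCr8) the coding genes on either side of Ucp2 are Ucp3, a close relative expressed in muscle, and Dnajb13, and 0 annotated genes overlap it.

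The 250 bases before the annotated start of Ucp2 are printed to show the stretch of DNA next to which transcription of this gene begins. They come from RefSeq for GRCr8, chr1:164251123-164251372, plus strand, written 5′ to 3′, which is a different build from the Rnor_6.0 genome used for the reads. Capitals mark the motifs found.

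Ucp2: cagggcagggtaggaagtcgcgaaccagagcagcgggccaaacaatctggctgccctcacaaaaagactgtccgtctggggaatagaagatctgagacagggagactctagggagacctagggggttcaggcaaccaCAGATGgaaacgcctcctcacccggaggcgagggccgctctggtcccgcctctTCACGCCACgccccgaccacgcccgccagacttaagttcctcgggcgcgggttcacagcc

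The stretch is 62.8% G or C, against a median of 51.2% over the same 250 bases of all 33469 promoters in the table. Both strands were searched for 7 short motifs. The sterol regulatory element TCACNCCAC, the type of site bound by the lipid-responsive SREBP factors, occurs once, from 60 to 52 bases before the start on the plus strand, and 0.974% of all promoters hold it. The general E-box CANNTG, bound by basic helix-loop-helix factors, occurs once, as CAGATG from 113 to 108 bases before the start, and is common, in 65.5% of promoters. TCACNCCAC is longer than CANNTG and has more fixed bases, which alone makes it rarer, so the shares do not rank the motifs. The palindromic E-box CACGTG, which is a form of CANNTG, has no match here and is present in 5.59% of promoters. The GC box GGGCGG (30.5% of promoters), the nuclear receptor half-site AGGTCA (14.1%), the TATA box TATAAA (12.9%) and the box CCAAT (34.0%) have no match in these letters either. No binding or methylation was measured in these samples, so the matches describe the sequence alone.

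Ucp2 was a moderately abundant transcript of the hippocampus. Its mean log2 value over the 10 rats was 5.21 on the log2 scale of RPM (reads per 1000000 reads of the authors' effective library size), above that of 67.1% of the genes. Its rank among the 16643 genes ran from 4750 in the rat with the highest level to 6865 in the rat with the lowest. Ranks compare reads per gene and not per length, so they do not order molecules.

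The bHR rats had Ucp2 levels within a narrow range. The 5 rats, replicates 1 to 5, had 41.5, 41.7, 39.3, 37.3 and 44.1 RPM, from 1535, 1316, 1947, 1707 and 1516 reads. The mean was 40.8 ± 2.58 RPM (SD, n = 5). The lowest bHR rat lay at 91.5% of that mean and the highest at 108.2%.

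The bLR rats spanned a wider range that reached further down. Replicates 1 to 5 had 39.9, 39.7, 31.2, 25.7 and 33.2 RPM, from 1487, 1662, 1026, 750 and 905 reads, with a mean of 33.9 ± 6.01 RPM (SD, n = 5). Replicates 1 and 2 lay within the bHR range, at 97.8% and 97.3% of the bHR mean, and replicates 3, 4 and 5 lay below every bHR rat, at 76.5%, 62.9% and 81.5% of it.

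**Figure D1:**
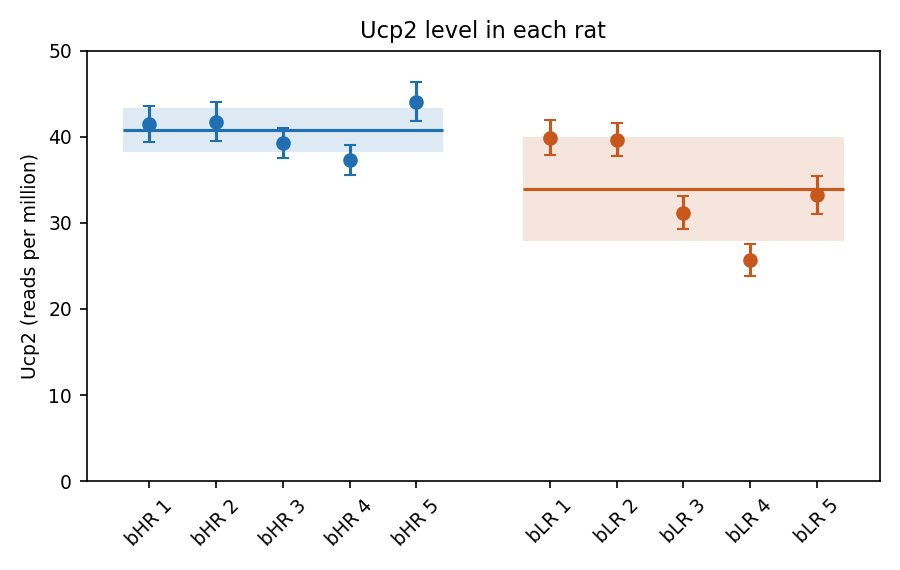
Ucp2 level in RPM for each of the 10 rats, with exact Poisson 95% intervals for counting error as bars, and the mean of each line as a horizontal line with a band of 1 SD either side (n = 5). Replicates 1 and 2 of bLR sit among the bHR rats, and replicates 3, 4 and 5 of bLR sit below all of them.

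Over all 10 rats the highest level, in bHR replicate 5, was 1.72 times the lowest, in bLR replicate 4. In order of level the rats were bHR 5, bHR 2, bHR 1, bLR 1, bLR 2, bHR 3, bHR 4, bLR 5, bLR 3 and bLR 4. The exact Poisson 95% intervals of neighbours in this order overlapped, except between bHR 4 (35.5 to 39.1 RPM) and bLR 5 (31.1 to 35.4), and between bLR 3 (29.3 to 33.1) and bLR 4 (23.8 to 27.5). These intervals cover counting error only. The first of these breaks had 5 bHR and 2 bLR rats above it and 3 bLR rats under it.

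On average Ucp2 was higher in bHR than in bLR, with mean log2 values of 5.35 ± 0.09 (SD, n = 5) and 5.07 ± 0.27 (n = 5). The fitted difference was 0.28 on the log2 scale with an SE of 0.11 (limma, line as the only term), a 1.22-fold higher level in bHR. The lines overlapped between 37.3 and 39.9 RPM. Of all genes, 4.15% had all rats of a line above or all below the other line, and Ucp2 was not among them. The size of its difference was exceeded by 11.6% of all genes, and by 2.70% of the 5178 genes whose mean lay within 1 log2 unit of its own, where the median absolute difference was 0.05.

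The average difference rested in part on bLR replicate 4. Without that rat the difference was 0.19 (SE 0.08), and with each of the other 9 rats left out in turn it was 0.25 to 0.35. In a fit that also held the social interaction score, with 1 slope of -0.020 for both lines, the difference was 0.46 (SE 0.12). That value refers to equal scores, while the mean scores were 22.2 in bHR and 13.2 in bLR. It depends on the shared slope, which was -0.0028 without bLR replicate 4. With a slope of its own, bHR had 0.0015. The bLR rat with the lowest Ucp2 level was also the bLR rat with the highest score.

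**Figure D2:**
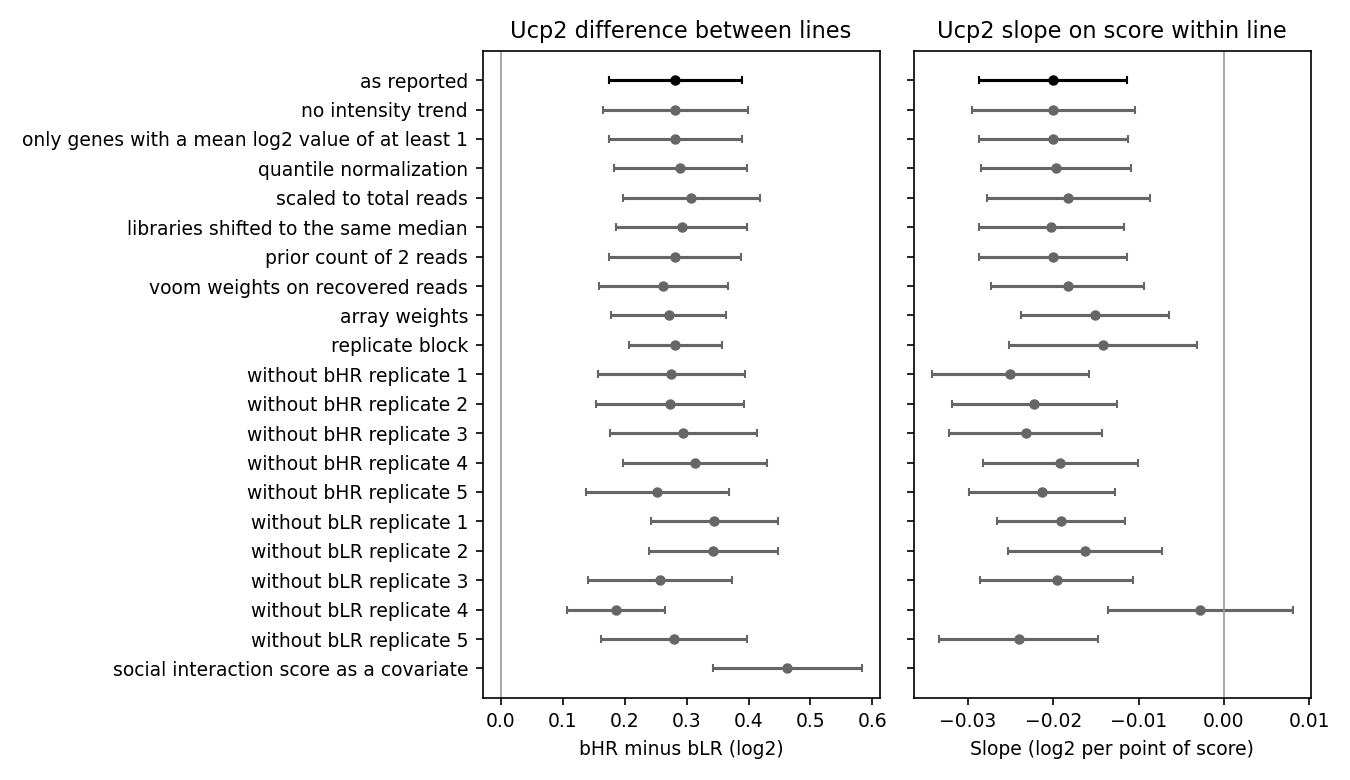
Left, the bHR minus bLR difference of Ucp2 in log2 units, and right, its slope in log2 units per point of social interaction score within line, under each processing setting with 1 slope for both lines, with bars of 1 SE. All differences lie above 0, from 0.19 to 0.46, where 0.46 is from the fit that also holds the score. Of the slopes shown the one nearest to 0, at -0.0028, is that without bLR replicate 4.

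Ucp2 varied more between bLR rats than between bHR rats. Its SD over the 5 rats was 0.27 log2 units in bLR and 0.09 in bHR, 2.88 times as large in bLR. Among the 5178 genes of similar level the median SD was 0.09 in bLR and 0.07 in bHR, and the median ratio of the SDs was 1.28. In bLR 4.50% of these genes had a larger SD than Ucp2, in bHR 27.2% did, and 8.63% had a larger ratio. The difference in spread was not tested.

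The spread between rats was wider than counting error in both lines. The reads behind each value give a coefficient of variation of 2.52% in bHR and 3.06% in bLR from counting alone, while the coefficient of variation between rats was 6.34% in bHR and 17.7% in bLR. Depth, as total reads on the genes kept, moved with the low values within bLR. Replicates 3, 4 and 5 had 32589007, 29106105 and 29211331 reads, and replicates 1 and 2 had 36559242 and 41330403. In bHR the deepest libraries, replicates 4 and 3 with 45181668 and 48663164 reads, had the lowest levels at 37.3 and 39.3 RPM. Replicates 2, 5 and 1, with 31214307, 33839361 and 36674888 reads, had 41.7, 44.1 and 41.5 RPM. The part of depth in the spread was not tested.

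**Figure D3:**
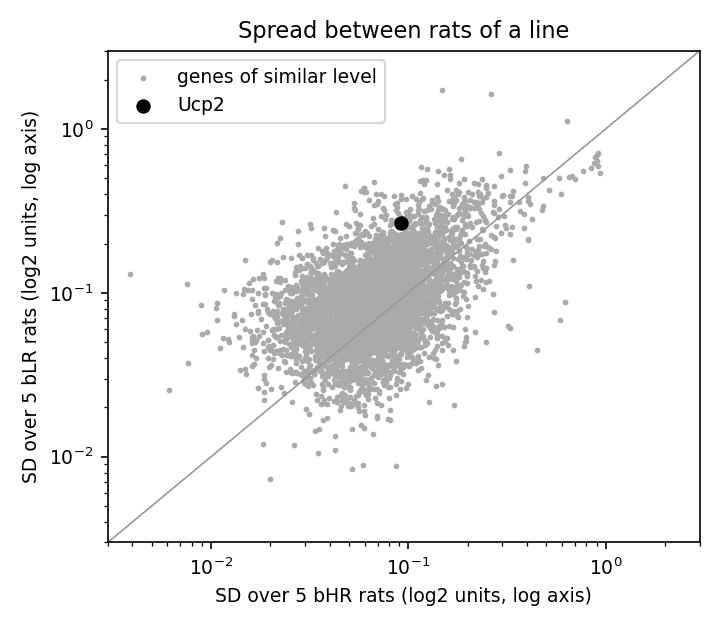
SD of the log2 value over the 5 bLR rats against the SD over the 5 bHR rats, both on log axes, for Ucp2 (black) and the 5178 genes with a mean within 1 log2 unit of it (grey), with the diagonal as a line. Ucp2 lies above the diagonal, at 0.27 in bLR and 0.09 in bHR.

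The social interaction score, which the labels give without a unit, was lowest at 16.67 and highest at 28.33 among bHR rats, and lay between 7.33 and 24.0 among bLR rats. In bLR the rats with scores of 7.33, 8.0, 12.33, 14.33 and 24.0 had Ucp2 levels of 33.2, 39.7, 39.9, 31.2 and 25.7 RPM. The highest score thus went with the lowest level, but the lowest score did not go with the highest. In bHR the rats with scores of 16.67, 17.67, 24.0, 24.33 and 28.33 had 41.7, 39.3, 44.1, 37.3 and 41.5 RPM, with no steady order.

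With line and score in one limma fit, Ucp2 had a slope of -0.020 log2 units per point of score (SE 0.0087). The slope was -0.020 to -0.014 in 9 other settings of scaling, filter, weights and model, with SEs of 0.0086 to 0.011. The slope of -0.014, with the replicate block, had the largest SE. A slope of larger size was found for 11.9% of all genes, and the median size over all genes was 0.0055. Given a slope of its own, bLR had -0.032 (SE 0.0094) and bHR 0.0015 (SE 0.013), a difference of 0.033 (bHR minus bLR, SE 0.016) that was not tested.

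The size of the slope depended on bLR replicate 4. Without this rat the slope over both lines was -0.0028 (SE 0.011), and the slope in bLR alone went from -0.032 to -0.015. With each of the other 9 rats left out in turn, the slope over both lines was -0.025 to -0.016. The lines are separate clusters of 5 rats, so no correlation with the score is given.

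**Figure D4:**
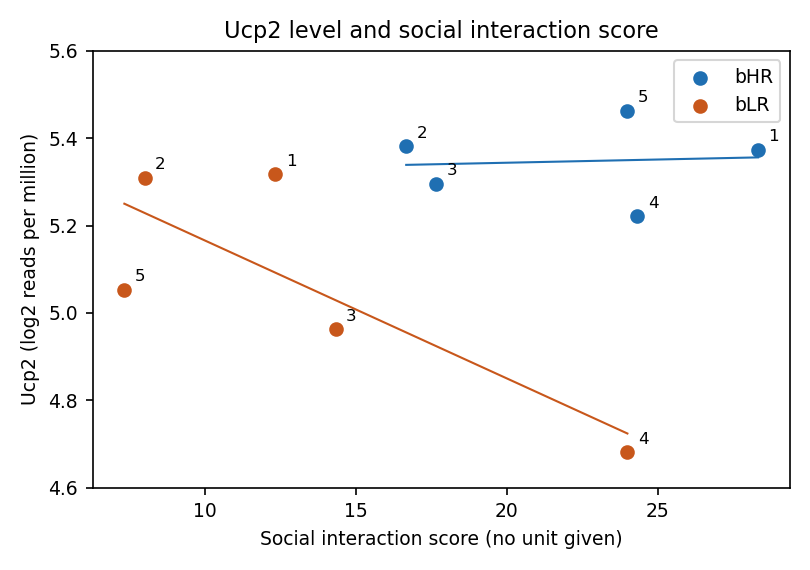
Ucp2 level (log2 RPM) against the social interaction score, 1 point per rat with its replicate number, and a least-squares line within each line of rats (n = 5 each). The fitted line falls in bLR, where replicate 4 has the highest score (24.0) and the lowest Ucp2 level (4.68), and is nearly flat in bHR.

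Other genes were searched for patterns over the rats like that of Ucp2, among the 14920 genes with a mean log2 value of at least 0. Likeness was Pearson's r over the 10 libraries, once on the levels and once on the deviations from the line means, which leave out the difference between lines. The points share their library, its depth and its scaling, so an r here is a description. The genes below were picked for the highest r among 14920, so their likeness to Ucp2 over these rats follows from the choice. At most 4 identifiers are printed, since their names are not given.

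On the levels, ENSRNOG00000005067 was most like Ucp2, with r = 0.97 (n = 10 rats). By Spearman's rho, which was 0.96 for this gene, another gene came first. Its log2 values in bHR replicates 1 to 5 were 5.10, 5.12, 5.00, 4.98 and 5.09, and in bLR 5.08, 5.07, 4.76, 4.67 and 4.84. As for Ucp2, bLR replicates 1 and 2 lay among the bHR rats and replicates 3, 4 and 5 lay below them. The gene was picked for such a likeness. The next, ENSRNOG00000004410, had r = 0.95 and log2 values of 2.82 to 3.01 in bHR and of 2.96, 2.82, 2.59, 2.36 and 2.58 in bLR.

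On the deviations from the line means the most alike gene was ENSRNOG00000020748, at r = 0.97 (n = 10 rats), a transcript with a mean log2 value of 9.42 in bHR and 9.36 in bLR. It was followed by ENSRNOG00000012204, at r = 0.96, with 6.63 in bHR and 6.72 in bLR. For the latter r was 0.41 on the levels, and its mean was lower in bHR than in bLR, opposite to Ucp2. It had the same order of rats as Ucp2 in bLR but not in bHR. Of the 5 most alike genes by each measure, 1 was shared, ENSRNOG00000005067.

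**Figure D5:**
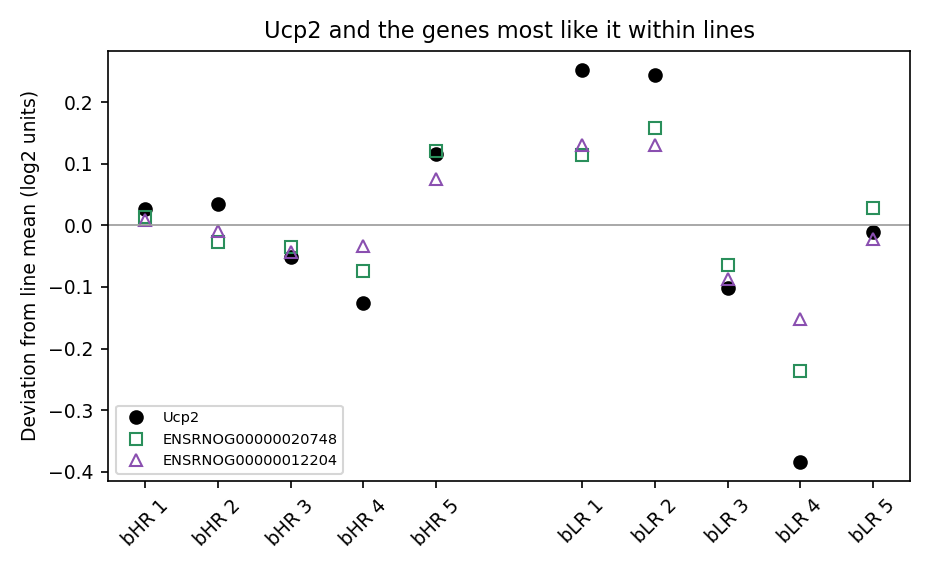
Deviation from the line mean in log2 units for Ucp2 (black circles) and for the 2 genes most like it within lines, ENSRNOG00000020748 (squares) and ENSRNOG00000012204 (triangles), in each rat. All 3 are above their bLR mean in replicates 1 and 2 and lowest in replicate 4. The other genes were picked for their likeness to Ucp2 over these rats.

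Many transcripts had deviations from the line means that ran with or against those of Ucp2. On the deviations 415 genes had an r of 0.8 or more with Ucp2 and 531 an r of -0.8 or less, 946 in all, where the median gene had 202 such partners and 0.985% of genes had more. On the levels the numbers were 194 and 227, 421 in all, against 141 for the median gene, and 5.72% of genes had more. Ucp2 was thus among the genes with many partners over these rats, in both directions, and more so once the difference between lines was taken away. The deviations of Ucp2 were larger in bLR (SD 0.27) than in bHR (SD 0.09), so the bLR rats weigh more in r. The largest was that of bLR replicate 4, at -0.38, and the counts of partners were not repeated without this rat.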

How the data were processed

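The deposited table holds 1 value per gene and rat on a log2 scale, which the authors made with voom in limma (R 3.2.2 per the submitters' processing notes). Per the labels' protocols, single reads of 50 bases were aligned to Rnor_6.0 with Subread and counted with featureCounts on Ensembl release 85, and genes were kept if 5 or more samples reached 16 counts. The strand setting and any rule for reads that fit several genes are not given in the sources used here. Whole reads were recovered from the log2 values by 1 constant per library: 100% of values came out whole within 0.01 reads. The total reads of a rat are the sum over the genes kept. RPM values are 2 to the power of the deposited log2 value. All genes were fitted together with limma 3.58.1 (R 4.3.3), with the prior variance allowed to follow the mean level, and the steps were tested on simulated data. Tables and figures used Python 3.11.15, numpy 2.4.6, pandas 2.3.3, scipy 1.17.1 and matplotlib 3.10.9. Rats were grouped by their titles, and replicates are separate animals.

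The gene, the lists and the settings were chosen with earlier results of these data known. The rule for named genes took Ucp2, members of gene lists, its neighbours and the 5 genes most like it by each measure. Only Ucp2 has a name in the sources used here, so the lists of mitochondrial, antioxidant, cell type and neighbouring genes were not examined, the count of all genes passing a threshold between lines, planned as their background, was not used, and 2 identifiers per measure are printed.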

Additional observations from a re-analysis of the deposited data

Results flagged for a closer look

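In 14 groups of 5 values (Ucp2 level and reads, social interaction score, total reads, effective library size over total reads, median level of all genes and genes at 0 reads, in each line) 1 value stood far from the others of its line, where about 1 group in 20 gives such a value by chance. The effective library size of bLR replicate 5 came to 0.933 of its total reads, and the next bLR library was at 1.005. Scaled to total reads Ucp2 in that rat was 31.0 RPM instead of 33.2, still below every bHR rat, and without that rat the difference between lines was 0.28 on the log2 scale. No value of Ucp2 itself was of this kind.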

How the results depend on the processing

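The bHR minus bLR difference of Ucp2 stayed above 0 in all 20 alternatives. It ran from 0.26 to 0.46 over 10 other settings (variance prior, filter on low values, 3 other scalings, prior count, 2 kinds of weights, the replicate block and the score as a covariate). The 0.46 came from the score as a covariate, which gives the difference at equal score. The highest of the rest was 0.31, scaled to total reads. When 1 library was left out the difference ran from 0.19 to 0.35. The slope on the social interaction score ran from -0.020 to -0.014 over 9 other settings and from -0.025 to -0.0028 when 1 library was left out, and with a slope for each line, a setting chosen after seeing the data, it was -0.032 in bLR and turned to 0.0015 in bHR. The cause was not tested. Over all genes the deviations of rats with equal replicate numbers correlated between -0.15 and 0.10. Of the bHR rats, 0 of 5 correlated best with their own number. For Ucp2 the deviations of bHR replicates 1 to 5 were 0.03, 0.03, -0.05, -0.13 and 0.12. Those of bLR replicates 1 to 5 were 0.25, 0.24, -0.10, -0.38 and -0.01. Whether equal numbers pair the rats was not tested. With the replicate block the difference was 0.28 (SE 0.08) and the slope -0.014 (SE 0.011). The r of the most alike gene was 0.96 as a rank correlation on the levels and 0.92 on the deviations, and ran from 0.97 to 0.98 and from 0.92 to 0.98 when 1 library was left out. The gene in first place was the same in 9 of 10 such fits on the levels and in 2 of 10 on the deviations, and by rank correlation another gene came first on both. The planned fits for gene lists and neighbouring genes were not run, for want of gene names. At 750 to 1662 reads per rat in bLR, counting error came to 3.06% on average over the line.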
